A study of Mus musculus with 8 samples.

Results

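Fatty acid synthesis and desaturation was followed through 10 genes chosen by symbol from the deposited transcriptome table of 23361 genes: Acaca, Fasn, Elovl1, Elovl5, Elovl6, Scd1, Scd2, Fads1, Fads2 and Fads3. All 10 were found, and 9 reached 1 FPKM (fragments per kilobase of transcript, scaled to the fragments of the sample) in at least 1 group, the level above which a gene was taken as expressed. Fads3 stayed below it in every group. The RNA came from mouse bone marrow of strain 129S6 turned into established leukaemia lines (acute myeloid) by the fusion oncogene MLL-AF9. The tested line was Cdc73fl/fl CreERT2, called floxed here, and its comparison line was Cdc73 +/+ CreERT2, called wild type. Both lines carry MLL-AF9 and the 4-hydroxytamoxifen (4OHT) activated recombinase CreERT2, both grew in serum with 10 ng/mL interleukin 3, and both received 7.5 nM 4OHT for 24 or 48 h. Each of the 4 groups had 2 libraries, 8 in all. The comparison asks how excision of Cdc73, a subunit of the PAF1 transcription elongation complex, changes expression in these cells. The lines are distinct, whether each is a clone is not given, and untreated cells were not analysed here, so differences older than the treatment are part of each comparison.

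Mammalian cells build fatty acids in the cytosol. Acetyl-CoA carboxylase makes malonyl-CoA, fatty acid synthase joins these units into palmitate, elongases of the ELOVL family lengthen the chain in the endoplasmic reticulum, and stearoyl-CoA desaturases place a double bond in saturated chains to give oleate and palmitoleate. The FADS front-end desaturases act on essential dietary fatty acids and lead to arachidonate, the precursor of leukotrienes and prostaglandins in myeloid cells. Transcription of many of these genes is known to be driven by SREBP factors and the liver X receptors.

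The deposited table gives 1 FPKM value per group with the duplicates already combined, so no SD is available, and the levels below are the authors' values. A gene is said to be called where the authors' deposited q-value between the genotypes at that time was under 0.05. The labels do not say whether the libraries of a group came from separate cultures, so this q may measure only the spread between 2 libraries per group. Read depth is unknown. Cdc73 itself stood at 5.96 FPKM in floxed and 26.2 in wild type cells at 24 h, and at 5.45 and 26.9 at 48 h, and was called at both times (q = 0.000449 and 0.000165 in the authors' deposited table). Its locus entry is shared with B3galt2.

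The members lie on 5 chromosomes, given here by GENCODE M21 on GRCm38, the assembly of mm10. Scd1 (chromosome 19, 44394455 to 44407879, minus strand) and Scd2 (44293674 to 44306864, plus strand) lie within a stretch of 114.206 kb that includes both genes. Fads3 (10041569 to 10060110, plus), Fads2 (10062765 to 10101746, minus) and Fads1 (10182888 to 10196877, plus) form a cluster of 155.309 kb on the same chromosome. Acaca (84129672 to 84401651, plus) and Fasn (120805846 to 120824547, minus) are on chromosome 11, Elovl1 (118428093 to 118432953, plus) on chromosome 4, Elovl5 (77917364 to 77984519, plus) on chromosome 9 and Elovl6 (129532355 to 129638495, plus) on chromosome 3. All are protein-coding, and their spans range from 4.861 kb for Elovl1 to 271.98 kb for Acaca.

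Promoter sequences of 3 members, picked after their values were seen, are shown because 2 of them, Fads2 and Elovl5, were lower together in floxed cells at 48 h while the third, Fasn, was not called then. They are RefSeq windows on GRCm38.p6 from 250 bases before to 50 after the gene start, read 5′ to 3′ along the gene, at chr19:10101454-10101753 (minus) for Fads2, chr9:77917115-77917414 (plus) for Elovl5 and chr11:120824498-120824797 (minus) for Fasn. Capitals mark matches on either strand to CCAAT (the NF-Y box), CACGTG (E-box), GGGCGG (GC box) or TCACNCCAC (a form of the sterol regulatory element).
Fads2: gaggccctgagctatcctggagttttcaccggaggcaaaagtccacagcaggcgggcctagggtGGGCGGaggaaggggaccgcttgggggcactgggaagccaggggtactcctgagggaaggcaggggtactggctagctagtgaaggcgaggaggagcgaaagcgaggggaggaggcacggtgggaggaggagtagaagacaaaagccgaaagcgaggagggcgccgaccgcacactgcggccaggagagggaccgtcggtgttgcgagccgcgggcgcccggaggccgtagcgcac
Elovl5: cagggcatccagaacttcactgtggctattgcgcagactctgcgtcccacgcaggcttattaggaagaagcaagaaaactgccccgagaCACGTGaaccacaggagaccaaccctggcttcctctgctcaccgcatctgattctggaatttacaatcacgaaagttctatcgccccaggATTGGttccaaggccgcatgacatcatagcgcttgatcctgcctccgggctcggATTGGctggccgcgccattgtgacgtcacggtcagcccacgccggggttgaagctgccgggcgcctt
Fasn: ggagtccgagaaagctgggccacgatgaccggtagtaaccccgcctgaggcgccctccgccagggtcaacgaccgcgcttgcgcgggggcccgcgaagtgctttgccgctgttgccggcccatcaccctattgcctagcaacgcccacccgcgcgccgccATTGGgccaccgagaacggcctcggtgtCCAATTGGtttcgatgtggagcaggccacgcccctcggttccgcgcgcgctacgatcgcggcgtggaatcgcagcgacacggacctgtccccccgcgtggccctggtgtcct
Elovl5 held 2 CCAAT boxes in reverse orientation, 71 and 17 bases before the gene start, and 1 E-box. Fasn held 3, of which 2 on opposite strands overlap. Fads2 held 1 GC box and neither of those motifs. Sequence was matched for 7 of the 10 members, Fads2, Fads3, Elovl1, Elovl5, Elovl6, Fasn and Acaca. Among them Fads3 held 2 CCAAT boxes and 2 GC boxes. Elovl1 has 2 windows, of which the upstream one held 1 CCAAT box and 5 GC boxes and the other held 2 GC boxes and no CCAAT. Elovl6 and Acaca held none of the 4 motifs, and TCACNCCAC was found in none of the 7. The Acaca window is set on a start at 84195438, inside the GENCODE span that begins at 84129672. Sequence at that GENCODE start was not searched. Over all 32851 windows of this length, 37.4% hold CCAAT, 7.15% CACGTG, 35.7% GGGCGG and 1.24% TCACNCCAC. These matches describe letters and do not show binding.

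At 24 h the genotypes differed little in this pathway. Scd1 was called lower and Fasn higher in floxed cells, and the other 7 expressed members were not called. Over all 10987 expressed genes with a test at 24 h, 27.6% were called, 13.4% higher and 14.2% lower, so 1 higher and 1 lower of 9 members is near the background. The median change of the 9 members on the log2(FPKM + 1) scale was -0.17, against -0.0083 over all 11158 expressed genes.

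At 48 h 7 of the 9 expressed members were lower in floxed cells and none was higher. The 7 were Scd1, Scd2, Fads1, Fads2, Elovl5, Elovl6 and Acaca, and each had q = 0.000165 in the authors' deposited table, a floor that 3684 genes share at 48 h. Fasn and Elovl1 were not called. Over all 11039 expressed genes with a test, 56.8% were called, 25.7% higher and 31.0% lower in floxed cells, against 77.8% of these members lower. The median change of the members was -1.17 on the log2(FPKM + 1) scale, against -0.06 over all expressed genes. In bulk RNA, fewer cells of a type and less RNA per cell cannot be told apart.

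**Figure D1:**
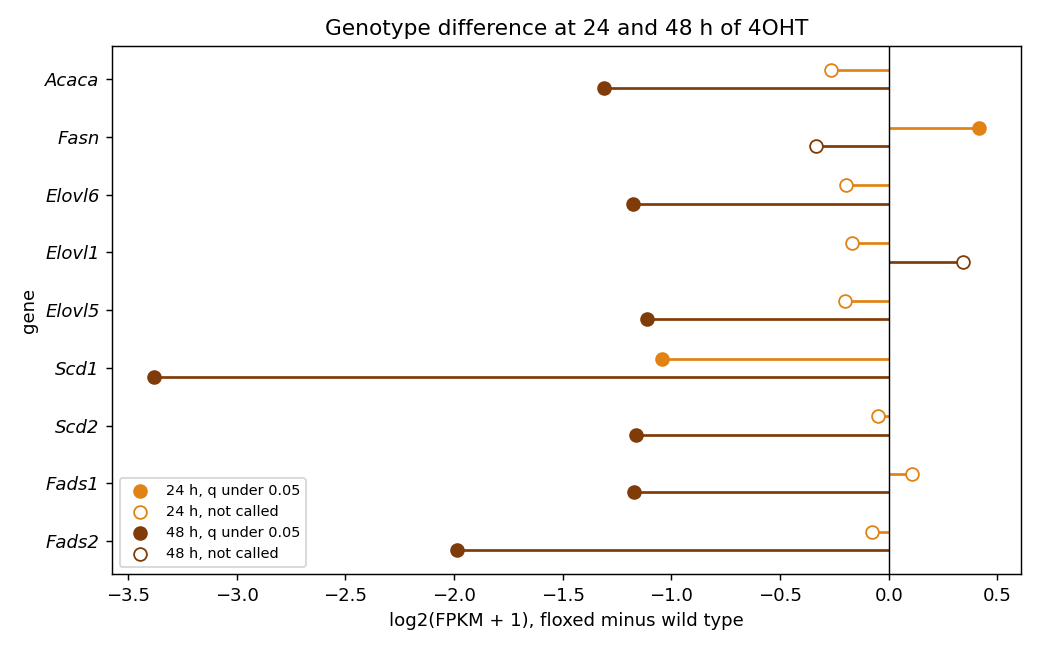
Difference between floxed and wild type cells on the log2(FPKM + 1) scale (horizontal axis) for the 9 expressed members (vertical axis), at 24 h (upper of each pair) and 48 h (lower). Filled points had an authors' q under 0.05. At 48 h the 7 filled points lie between -3.38 and -1.11, while Fasn and Elovl1 are open.

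The enzymes that start the pathway behaved differently from each other. Acaca, the carboxylase that makes malonyl-CoA, stood at 20.0 FPKM in floxed and 24.3 in wild type cells at 24 h (q = 0.131), and at 10.0 in floxed and 26.4 in wild type cells at 48 h. It was 2.63-fold lower in floxed cells at the later time, a log2(FPKM + 1) change of -1.31. Of its annotated transcript, 64.3% matches another gene, Gm5182, at 97% identity or more over stretches of at least 50 bases. Reads may thus have been split between them, but no gene of the symbol Gm5182 is among the deposited values. Fasn, the multifunctional synthase, stood at 116 FPKM in floxed and 86.7 in wild type cells at 24 h, and was 1.34-fold higher (q = 0.0238). At 48 h it stood at 78.9 in floxed and 99.9 in wild type cells, without a call (q = 0.0776). The higher value thus lay with floxed cells at 24 h and with wild type cells at 48 h. The 24 h call is lost at q under 0.01. The ratio of Fasn to Acaca levels was 5.79 in floxed and 3.57 in wild type cells at 24 h, and 7.86 and 3.79 at 48 h.

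Among the elongases, those for palmitate and for polyunsaturated chains were lower in floxed cells at 48 h, and the one for very long saturated chains was not called. Elovl6, which extends palmitate to stearate, stood at 11.2 FPKM in floxed and 13.0 in wild type cells at 24 h (q = 0.279), and at 6.49 and 15.9 at 48 h. It was 2.45-fold lower in floxed cells at 48 h, and 16.1% of its transcript matches other genes, Gm11295 among them. The symbol Gm11295 is also absent from the deposited values. Elovl5, which elongates polyunsaturated chains, stood at 50.4 in floxed and 58.1 in wild type cells at 24 h (q = 0.290), and at 30.0 and 66.0 at 48 h, where it was 2.20-fold lower. Elovl6 and Elovl5 kept a ratio between 4.14 and 4.62 in all 4 groups. Elovl1, which makes very long saturated and monounsaturated chains, stood at 81.3 in floxed and 91.5 in wild type cells at 24 h (q = 0.615), and at 109.6 and 86.3 at 48 h (q = 0.214). It shares its locus entry with the cell cycle gene Cdc20 on the table and 2.93% of its transcript matches Cdc20. Without a call at either time, Cdc20 stood at 121 in floxed and 91.5 in wild type cells at 24 h, and at 110 and 83.9 at 48 h. The level of Elovl1 relative to Elovl6 was 16.9 in floxed and 5.42 in wild type cells at 48 h.

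The stearoyl-CoA desaturases differed in size and in time. Scd1 stood at 5.72 FPKM in floxed and 12.8 in wild type cells at 24 h, and at 1.12 in floxed and 21.1 in wild type cells at 48 h. It was 2.25-fold lower in floxed cells at 24 h (q = 0.000449) and remained called at 48 h, when it held 5.31% of the wild type level. Its log2(FPKM + 1) change of -3.38 at 48 h ranked 30 from the lowest among 11158 expressed genes. Scd2, the isoform with the higher level here, stood at 319 in floxed and 330 in wild type cells at 24 h (q = 0.860), and at 207 and 466 at 48 h, where it was 2.25-fold lower. The change of Scd2 ranked 501 from the lowest. Scd2 exceeded Scd1 55.8-fold in floxed and 25.7-fold in wild type cells at 24 h, and 185-fold and 22.1-fold at 48 h. No stretch of at least 50 bases of the Scd1 transcript matched another gene at 97% identity, Scd2 included, and the one such match of Scd2 was to Mir5114, which is listed at 0 in every group. The remaining isoforms Scd3 and Scd4 were at most 0.222 FPKM in any group.

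Both expressed front-end desaturases fell at 48 h and neither was called at 24 h. Fads2, the delta-6 desaturase that takes the initial step from linoleate, stood at 34.7 FPKM in floxed and 36.6 in wild type cells at 24 h (q = 0.746), and at 13.0 in floxed and 54.5 in wild type cells at 48 h. It was 4.19-fold lower at 48 h, and its log2 change of -1.99 ranked 70 from the lowest of all expressed genes. Fads1, the delta-5 desaturase that makes arachidonate, stood at 28.8 in floxed and 26.6 in wild type cells at 24 h (q = 0.607), and at 14.7 and 34.3 at 48 h, where it was 2.34-fold lower. Fads2 was above Fads1 in both lines at 24 h and in wild type cells at 48 h, but below it in floxed cells at 48 h, where the ratio was 0.886 against 1.59 in wild type cells. Fads3, a related gene, stood at 0.153 in floxed and 0.134 in wild type cells at 24 h, and at 0.0962 and 0.154 at 48 h, with q = 1 at both times.

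**Figure D2:**
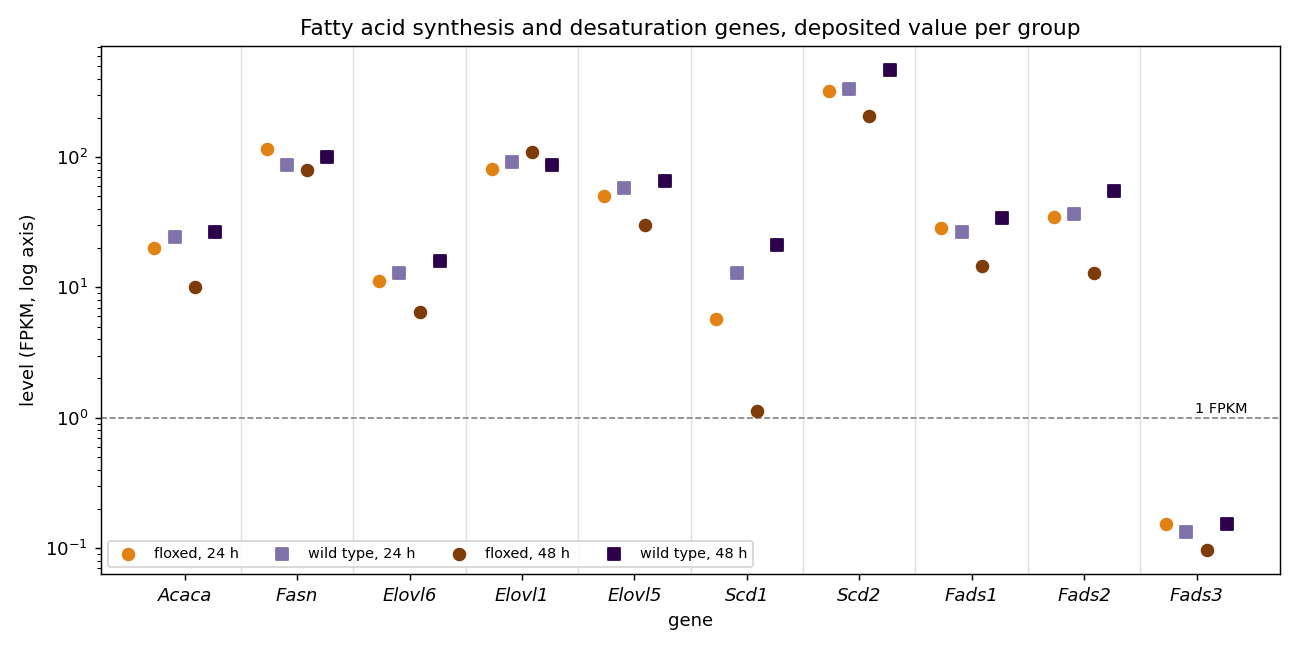
Deposited FPKM (vertical log axis) of the 10 genes (horizontal axis), ordered by step of the pathway, in floxed (circles) and wild type cells (squares) at 24 and 48 h. Each point is 1 value for 2 libraries and has no error bar. Scd2 is highest in every group, Scd1 in floxed cells at 48 h sits at 1.12 FPKM, and Fads3 lies below the dashed line at 1 FPKM.

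In order of level, Scd2 led in every group and held 44.0% of the members' summed FPKM in floxed and 53.5% in wild type cells at 48 h. Fasn and Elovl1 followed and exchanged places between groups, then Elovl5. Whether neighbours in this order differ beyond the spread of libraries could not be tested. The sum over the 10 genes was 667 FPKM in floxed and 680 in wild type cells at 24 h, and 471 and 870 at 48 h, that is 0.0674% of all FPKM in floxed and 0.133% in wild type cells at the later time. Elovl1 held 23.3% of that sum in floxed and 9.92% in wild type cells at 48 h.

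The wider difference at 48 h came with movement in both lines. From 24 to 48 h, 8 of the 9 expressed members were higher in wild type cells and lower in floxed cells at the later time, a combination found in 27.8% of all expressed genes. The exception was Elovl1. The rise in wild type cells was not particular to the members. Each of the 18 cholesterol genes listed below was also higher there at 48 h, with a summed FPKM of 1248 at 24 h and 1541 at 48 h. In floxed cells that sum was 1317 at 24 h and 1291 at 48 h. No test between times is in the table, and a common scaling of the times is not stated, so these are sizes only. In wild type cells Scd1 was 1.64-fold, Fads2 1.49-fold, Scd2 1.41-fold and Fads1 1.29-fold higher at 48 h than at 24 h. In wild type cells 107 of 11158 expressed genes (0.959%) had a log2 change as high as that of Fads1, the least changed of these 4, or higher. The median of the members in wild type cells was 0.28 on the log2(FPKM + 1) scale, against -0.01 over all expressed genes.

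In floxed cells the same comparison of times ran the other way. Scd1 was 5.11-fold, Fads2 2.67-fold, Acaca 1.995-fold, Fads1 1.96-fold, Elovl6 1.72-fold, Elovl5 1.68-fold, Scd2 1.54-fold and Fasn 1.47-fold lower at 48 h than at 24 h. A log2 change as low as that of Scd2, the least changed of the 4 desaturases in floxed cells, or lower was found in 1070 of 11158 expressed genes (9.59%). The median of the members was -0.73 in floxed cells, against -0.08 over all expressed genes. On the log2(FPKM + 1) scale 2 members, Scd1 and Fads2, were at least 2-fold lower at 48 h in floxed cells, a size that 1.37% of expressed genes reached downward and 4.80% upward. In wild type cells no member reached 2-fold on that scale, whereas 0.376% of expressed genes did upward and 0.538% downward.

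**Figure D3:**
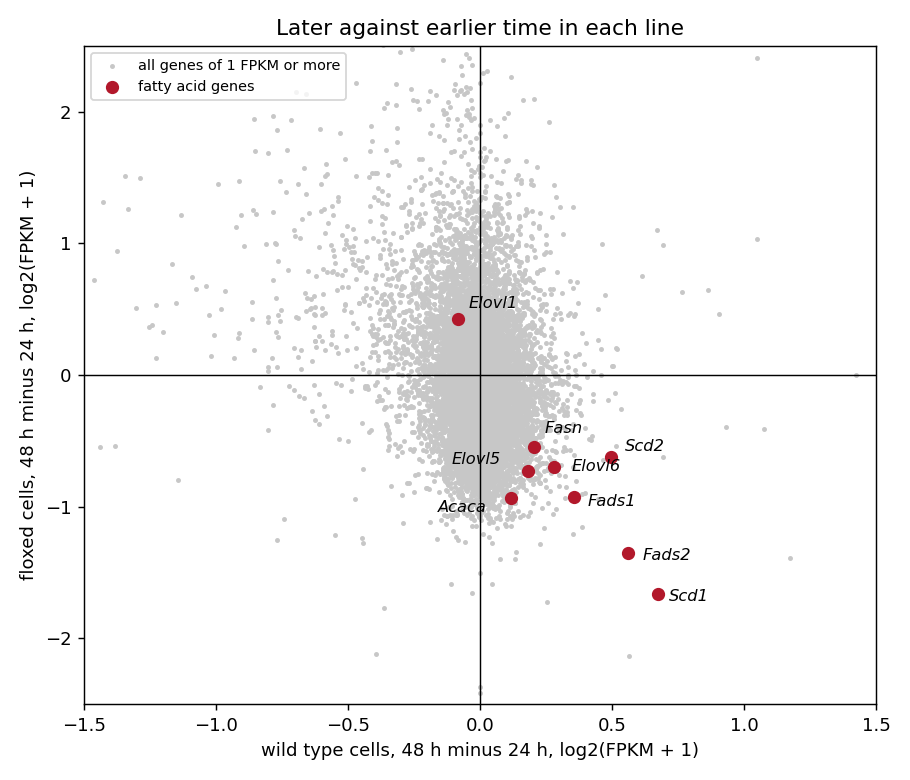
Change from 24 to 48 h on the log2(FPKM + 1) scale in wild type (horizontal axis) and floxed cells (vertical axis) for the 9 expressed members (red) and all expressed genes (grey, with 138 genes outside the plotted range). The 8 red points other than Elovl1 lie in the lower right, at 0.12 to 0.67 in wild type and -1.66 to -0.55 in floxed cells.

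The change of the genotype difference from 24 to 48 h, for which the table holds no test, was below 0 for 8 of 9 members. It was -2.34 for Scd1, -1.91 for Fads2, -1.28 for Fads1, -1.11 for Scd2 and -1.05 for Acaca on the log2(FPKM + 1) scale, and 0.51 for Elovl1. The median over the members was -1.05, against -0.07 over all expressed genes. These values and the changes at 48 h share the same 48 h libraries.

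Cells of these lines carried the markers of myeloid cells. The counts of called markers are to be read against the shares of all tested genes. These were 13.4% higher and 14.2% lower at 24 h, and 25.7% higher and 31.0% lower at 48 h. In summed FPKM the 10 neutrophil markers stood at 13016 in floxed and 13443 in wild type cells at 24 h, and at 27565 and 11684 at 48 h, with 3 called higher and 2 lower at 24 h, and 7 higher and 2 lower at 48 h. S100a8 was the largest part of the 48 h sum in floxed cells, at 16678.5, against 4134 in wild type cells. The 2 called lower at 48 h were Mpo, at 1011 in floxed and 1368 in wild type cells, and Elane, at 1745 and 3587. The 8 monocyte and macrophage markers summed to 3188 in floxed and 3205 in wild type cells at 24 h and to 6453 and 2574 at 48 h. Of the 7 expressed ones 2 were called lower and none higher at 24 h, and 6 were higher and Ccr2 lower at 48 h. The 4 eosinophil markers summed to 166 in floxed and 2.73 in wild type cells at 24 h and to 211 and 2.06 at 48 h, and 3 of them were called higher at each time. The 5 mast cell and basophil markers summed to 23.9 in floxed and 21.9 in wild type cells at 24 h and to 13.4 and 21.4 at 48 h. Of these, Mcpt8 and Ms4a2 were called higher and Kit lower at both times, and the defining gene Fcer1a was at 0. Most neutrophil and monocyte markers were thus higher at 48 h, when the fatty acid genes were lower, whereas the eosinophil markers were already higher at 24 h. The part of these cells in the results was not tested. Among 5 adipocyte markers Adipoq, Plin1, Lep and Cidec were under 1 FPKM everywhere, while Fabp4 stood at 2.096 in floxed and 12.4 in wild type cells at 24 h, 5.94-fold lower (q = 0.000449), and at 8.43 and 7.97 at 48 h (q = 0.797). No erythroid marker was expressed, and of the lymphoid and stromal lists only Nkg7 and Pecam1 were, both called lower in floxed cells.

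Suppliers of substrate did not move as a group. Of 10 expressed genes for acetyl-CoA, malonyl-CoA and NADPH, 3 were higher and 4 lower at 48 h, with a median log2 change of -0.07. That is near the 25.7% higher and 31.0% lower of all tested genes at 48 h. The cytosolic acetate-activating enzyme Acss2 stood at 1.84 FPKM in floxed and 5.59 in wild type cells at 48 h, 3.04-fold lower, and the citrate carrier Slc25a1 at 52.0 and 104, 2.01-fold lower. Malic enzyme Me1, which yields NADPH, stood at 19.3 in floxed and 4.02 in wild type cells and was 4.80-fold higher. Glucose-6-phosphate dehydrogenase G6pdx stood at 248 and 132 and was 1.88-fold higher. Acss2, Me1 and G6pdx share their locus entries with other genes. ATP-citrate lyase Acly, which cleaves citrate to acetyl-CoA, stood at 160.0 in floxed and 160.9 in wild type cells at 48 h (q = 0.971). At 24 h 2 genes of the list were higher and 2 lower, against 13.4% and 14.2% of all tested genes.

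Other enzymes of elongation and desaturation were mixed too, with 4 higher and 4 lower of 10 expressed at 48 h. Of all tested genes 25.7% were higher and 31.0% lower then. Degs1, which desaturates dihydroceramide, stood at 139.8 FPKM in floxed and 27.999 in wild type cells and was 4.99-fold higher at 48 h. Elovl7, another elongase of saturated chains, stood at 3.26 and 1.18 and was 2.76-fold higher. Cyb5r3, a reductase that passes electrons to the desaturases through cytochrome b5, stood at 22.7 in floxed and 44.2 in wild type cells, 1.94-fold lower. Hacd3, a dehydratase of the elongation cycle, stood at 13.7 and 24.6, 1.80-fold lower. At 24 h 2 of this list were higher and 2 lower, against 13.4% and 14.2% of all tested genes.

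Of 21 expressed regulators of lipogenic genes, 5 were higher and 4 lower at 48 h, and 1 was higher and 1 lower at 24 h. The shares of all tested genes were 25.7% higher and 31.0% lower at 48 h, and 13.4% and 14.2% at 24 h. Srebf1, whose product SREBP1 drives fatty acid synthesis genes, stood at 36.2 FPKM in floxed and 48.2 in wild type cells at 24 h (q = 0.0327) and at 21.9 and 49.6 at 48 h, where it was 2.27-fold lower. It shares its locus entry with another gene. The liver X receptor genes went the other way: Nr1h2 stood at 54.5 in floxed and 27.1 in wild type cells at 48 h, and Nr1h3 at 3.23 and 1.15, 2.01-fold and 2.81-fold higher. Ppard, a nuclear receptor for fatty acids, stood at 16.9 and 9.15 and was 1.85-fold higher at 48 h, also with a shared locus entry. Srebf2, whose product drives cholesterol genes, stood at 75.1 in floxed and 70.3 in wild type cells at 48 h (q = 0.644), with a shared locus entry.

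Of 18 expressed genes of uptake, binding and storage, 2 were higher and 5 lower at 24 h, and 7 were higher and 6 lower at 48 h. For all tested genes the shares were 13.4% higher and 14.2% lower at 24 h, and 25.7% and 31.0% at 48 h. The lower ones at 24 h included Fabp4, the fatty acid carrier Fabp5 at 202 FPKM in floxed and 324 in wild type cells, and the uptake receptor Cd36 at 0.212 and 1.19. At 48 h Cd36 was called higher, at 1.52 in floxed and 0.343 in wild type cells, and Fabp5 was not called (q = 0.280). Dgat2, which completes triglyceride synthesis, stood at 127 FPKM in floxed and 19.3 in wild type cells at 48 h, 6.61-fold higher, the largest increase among the 122 expressed genes of the 9 lists, and was also called higher at 24 h, at 35.4 and 18.0. Dgat1, which catalyses the same step, stood at 63.2 and 19.2, and the lipid droplet coat gene Plin2 at 465 and 113, 3.28-fold and 4.12-fold higher. Lpin1, a phosphatidate phosphatase, stood at 15.6 and 4.30 and was 3.63-fold higher. Gpam, which starts glycerolipid synthesis, stood at 4.07 in floxed and 9.79 in wild type cells at 48 h and was called lower at both times. It was added to the named genes after its values were seen, as were Acly, Srebf2, Fabp5 and Cd36.

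Of 18 expressed fatty acid oxidation genes, 8 were lower and none higher at 24 h, and 14 were lower and 3 higher at 48 h, with median log2 changes of -0.27 and -0.57. Over all tested genes 13.4% were higher and 14.2% lower at 24 h, and 25.7% higher and 31.0% lower at 48 h. These and the following counts are to be read against those shares. Echs1, an enoyl-CoA hydratase, stood at 66.3 FPKM in floxed and 116 in wild type cells at 24 h, and at 37.4 and 113 at 48 h, 1.75-fold and 3.03-fold lower. Hadh, Etfb and Acadm, a dehydrogenase, an electron carrier and the medium-chain acyl-CoA dehydrogenase, were 2.34-, 2.24- and 2.15-fold lower at 48 h. Of 8 genes of the separate mitochondrial pathway, 4 were lower at 24 h and 6 at 48 h, and none was higher. Its ketoacyl synthase Oxsm stood at 3.66 in floxed and 9.74 in wild type cells at 48 h, 2.66-fold lower, with a shared locus entry. The lipoyl transferase Lipt2 was 2.64-fold, the reductase Cbr4 2.18-fold and the acyl carrier gene Ndufab1 1.75-fold lower at 48 h.

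A list of 11 expressed genes held those that activate fatty acids and those that cleave or bind the CoA esters. In it 3 were higher and 2 lower at 24 h and 2 were higher and 3 lower at 48 h. For all tested genes the shares were 13.4% higher and 14.2% lower at 24 h, and 25.7% and 31.0% at 48 h. The lower ones at 24 h were Acot1 and Dbi, neither of which activates fatty acids. The transport proteins Slc27a1 and Slc27a4, which import and activate long chains, stood at 10.2 FPKM in floxed and 2.09 in wild type cells and at 18.7 and 8.60 at 48 h. They were 4.87-fold and 2.18-fold higher, while the thioesterase Acot7 was 2.35-fold lower. Acot1 stood at 2.35 in floxed and 3.70 in wild type cells at 48 h and was 1.58-fold lower. The other lower call at 48 h was Acsl5, which does activate fatty acids. It stood at 67.8 in floxed and 93.8 in wild type cells, 1.38-fold lower (q = 0.0110), and was named after its values were seen.

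Of 8 expressed genes that use arachidonate or place it in membranes, none was called at 24 h by the authors' q, and 4 were higher and 3 lower at 48 h. Among all tested genes 27.6% were called at 24 h, and 25.7% were higher and 31.0% lower at 48 h. The leukotriene genes Alox5ap and Alox5 stood at 759 FPKM in floxed and 327 in wild type cells and at 23.8 and 10.4 at 48 h, 2.32-fold and 2.28-fold higher. Ltc4s, which makes leukotriene C4, stood at 3.35 and 1.30 and was 2.57-fold higher (q = 0.00337). Lta4h, the hydrolase on the branch to leukotriene B4, stood at 254 in floxed and 510 in wild type cells, 2.01-fold lower.

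Cholesterol genes, which share SREBP control with the fatty acid genes, had 2 higher and 2 lower of 18 at 24 h. At 48 h 2 were higher and 6 lower. The shares of all tested genes were 13.4% higher and 14.2% lower at 24 h, and 25.7% and 31.0% at 48 h. The list's higher count at 48 h was thus below the background, and its other counts were near it. Nsdhl and Dhcr7, enzymes of the late pathway, were 3.55-fold and 2.24-fold lower at 48 h, whereas Idi1, an isomerase earlier in it, stood at 213 in floxed and 114 in wild type cells and was 1.87-fold higher. The list's median log2 change at 48 h was -0.21.

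**Figure D4:**
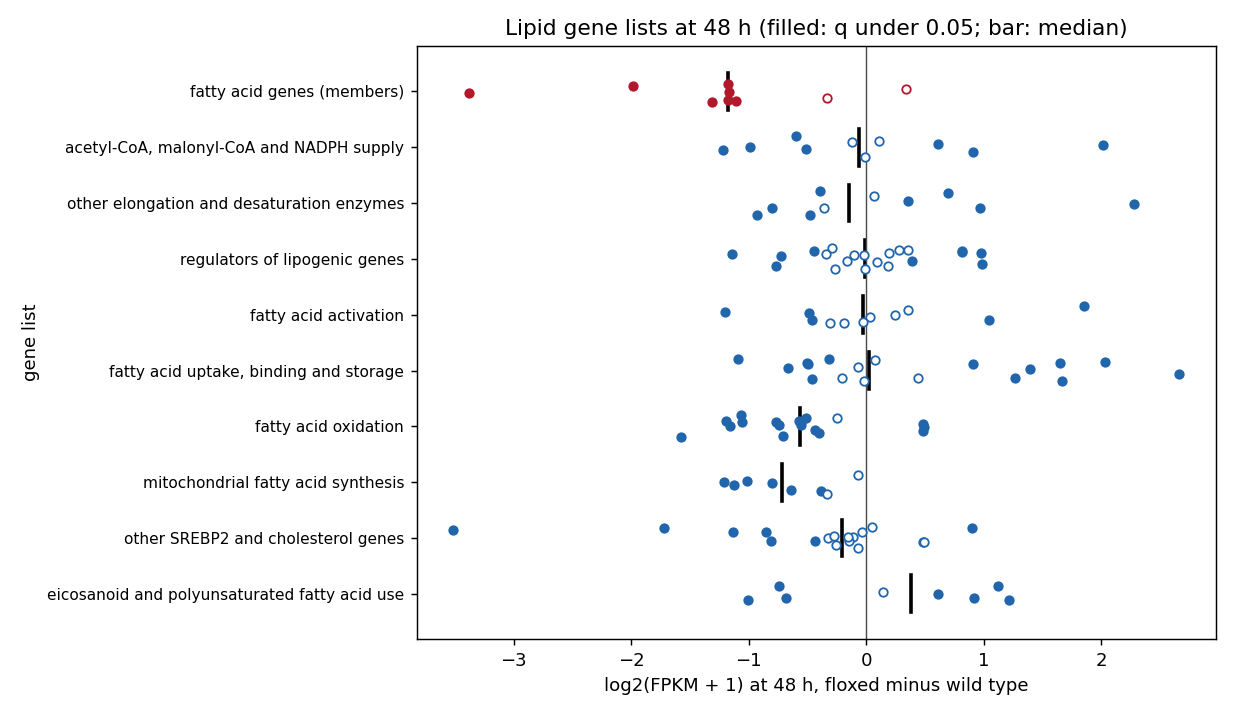
Change at 48 h on the log2(FPKM + 1) scale, floxed minus wild type (horizontal axis), of each expressed gene in the members and in 9 lipid lists (vertical axis). Filled points had an authors' q under 0.05 and bars are medians. The members' median is -1.17, that of oxidation genes -0.57, of mitochondrial synthesis genes -0.72 and of eicosanoid genes 0.38.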

How the data were processed

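Poly(A) RNA libraries were made from floxed and wild type cells after 24 or 48 h of 4OHT, with 2 libraries per group. The authors deposited 1 FPKM value per gene and group and 1 q-value per gene and time for the contrast of genotypes, per the file headers. The tools Bowtie2, Cuffdiff and Cufflinks 2.1 and the build mm10 are named, without roles, in the submitters' processing notes. No source used here gives the annotation, strandedness or depth. The authors' 2 fold columns were not used.

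Groups were assigned from the column names. With 1 value per group no test across libraries could be run, so calls are the authors' q under 0.05. Genes with q = 1 were taken as not tested. FPKM is relative to all RNA of a sample and cannot show absolute amounts. Log2 changes use log2(FPKM + 1), which understates changes of low genes, and folds are FPKM ratios, given where both groups reach 1 FPKM. The 27 genes whose names had become dates were left out. List genes were matched by symbol, 7 of 136 through older symbols in RefSeq.

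The members and lists were chosen with earlier results of these data known. Named are all members, and from each of 9 lists up to 4 called genes of at least 1 FPKM with the largest change at 48 h. A gene that this rule names is not reported here. Transcripts were compared by BLAST with all GENCODE M21 transcripts. The code for changes and calls was tested on simulated data. Alternatives were other pseudocounts, filters, q thresholds and scalings. Python 3.11.15 and pandas 2.3.3 were used.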

Additional observations from a re-analysis of the deposited data

Results flagged for a closer look

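The genotype difference had opposite directions at 24 and 48 h for 3 members, in the deposited group values, and the difference between the times was not tested. Fasn changed by -0.75 on the log2(FPKM + 1) scale between the times, as its difference was 0.42 at 24 h and -0.34 at 48 h, and only that at 24 h was called. Fads1 changed by -1.28, as its difference was 0.11 at 24 h and -1.17 at 48 h, and only that at 48 h was called. Elovl1 changed by 0.51, as its difference was -0.17 at 24 h and 0.34 at 48 h, with no call at either time.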

How the results depend on the processing

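The 7 lower calls at 48 h became 8 at q under 0.10, with Fasn, and were 7 again at q under 0.01, at 1.5-fold or more, at 5 FPKM or more and with no filter, and 6 without members sharing a locus entry (Scd2) or, an alternative added after the data were seen, without Acaca. The 1 higher call at 24 h, Fasn, was 0 at q under 0.01 and 0 at 1.5-fold or more. Members at least 2-fold lower at 48 h than at 24 h in floxed cells numbered 2, but 1 with a pseudocount of 5 and 4 with groups rescaled to the same FPKM sum. No member's genotype or time change changed sign under the pseudocounts and scalings tried, and the genotype change of Scd1 at 48 h ranged from -4.12 to -2.09. With pseudocounts of 0.1 and 5 its time change in floxed cells was -2.25 and -0.81, and its change of difference -2.97 and -1.36. List medians near 0 did change sign: at 48 h, with no filter, substrate supply was 0.0088, other elongation enzymes 0.022 and uptake and storage -0.018, the last also -0.065 at the same FPKM sum. At 24 h, regulators were 0.0051 at the same sum and the list of activation and CoA ester genes 0.0051 at 5 FPKM or more. No paired analysis was possible because the table holds 1 value per group, and for the same reason no replicate could be left out. Depth per library is not given, so no interval or detection limit was computed, which bears most on Scd1 in floxed cells at 48 h and on Fads3.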

Other observations

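The expressed genes closest to a member in shape were found by the Euclidean distance of centred log2(FPKM + 1) values over the 4 groups, a description that rests on 4 values per gene. Closest to Acaca was Hdhd2 (distance 0.021), at 9.76 FPKM in floxed and 25.3 in wild type cells at 48 h, followed by Eef2k, Pomt1, Prpsap2 and Lactb2. Closest to Scd2 were Il12a (0.033), Osbpl5, Slc28a2, Rapsn and the cholesterol gene Dhcr7. Il12a stood at 0.504 FPKM in floxed and 2.41 in wild type cells at 48 h. It, Osbpl5 and Slc28a2 were at most 3.49 FPKM in any group. The added 1 shrinks their changes more than those of Scd2, so likeness on this scale is not likeness in fold. No gene came as near to Scd1: the closest were Gm13139 (0.57) and B4galt4 (0.60), then BC035044, Mt2 and Cmah. Gm13139 stood at 0.000119 FPKM in floxed and 5.56 in wild type cells at 48 h. Gm13139, BC035044 and Pomt1 share their locus entries with other genes.

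Genes beside the Fads cluster, chosen by position within 100 kb after the member values were seen, did not share 1 direction at 48 h. Fen1, a DNA repair nuclease, stood at 70.0 FPKM in floxed and 99.3 in wild type cells and Tmem258 at 188 and 381, both called lower. Fth1, the ferritin heavy chain, stood at 1849 in floxed and 595 in wild type cells and was called higher, as was Dagla at 2.04 and 0.506. Rab3il1 stood at 1.40 and 1.37 without a call. Beside Scd1 and Scd2 no other gene reached 1 FPKM.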
